A study of Mus musculus with 6 samples.

Results

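The genes of de novo fatty acid synthesis were followed in whole mammary glands of Elf5 knockout (KO) and wild-type mice. The 7 members were Slc25a1, Acly, Acss2, Acaca, Fasn, Olah and Thrsp, taken as every probe set annotated to a single member symbol. That gave 18 of the 45037 probe sets outside the controls, or 7 of the 18193 genes named by such probe sets. Another probe set, shared by Acss2 and a second gene, was left out by that rule.

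The series held 3 Elf5 KO and 3 wild-type samples of total RNA, each from a different animal and each on 1 one-colour Affymetrix array. The sample labels give pregnancy day 17 for both groups, and the design text speaks of lactation day 1. The sources used here give no strain, Elf5 allele, Cre driver or age of the mice. Elf5 itself, at its brighter probe set, read 5616, 4361 and 3128 in KO arrays, against 12011, 8044 and 7244 in wild type. Every KO array was below every wild-type array on both Elf5 probe sets, yet the KO mean was still 48.0% of wild type (log2 difference -1.06 ± 0.31, SE, limma adjusted p = 0.174). The labels were used as given.

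Milk fat of the mouse is made largely from glucose in the secretory epithelium. Citrate leaves the mitochondrion, is split to cytosolic acetyl-CoA, is carboxylated to malonyl-CoA and is built into chains by fatty acid synthase. In the lactating gland a separate thioesterase frees chains early, which gives milk its medium-chain fatty acids. Adipocytes, which fill the fat pad around the epithelium, use most of the same enzymes.

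Of the 15 tested member probe sets, 1, of Olah, was lower in the KO without overlap of the groups. Over all probe sets tested this held for 12.7%, and for 24.6% in either direction, so it does not set Olah apart. Olah, the thioesterase that ends chains early, read 46.6% and 36.3% of the wild-type mean on its 2 probe sets. The ratio of Olah to Fasn was lower in each KO array than in any wild-type array (exact permutation p = 0.1, two-sided, 0.35 adjusted over 7 ratios). Another of these ratios, Acss2 over Acly, also parted the groups, and no share over all gene pairs was worked out. Slc25a1 and Acly, the citrate steps, averaged 46.0% and 49.6% of wild type at their brightest probe sets. Fasn, Thrsp and Acaca averaged 66.2%, 61.5% and 70.4%. Acss2, which makes acetyl-CoA from acetate, averaged 112% and 216% of wild type on its brighter probe sets. At the brightest one this rests on KO array 1, without which the log2 difference was -0.68.

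None of the 15 member probe sets that could be tested passed the threshold. Differences were tested on log2(signal + 16) with limma over 27024 probe sets, with Benjamini-Hochberg adjustment and a threshold of 0.05. The call rate of that fit was 0% over all probe sets, with 17.7% at an unadjusted p under 0.05. Of the 15, 4 were lower at an unadjusted p under 0.05, against 9.23% of all probe sets lower at that level, and none was higher, against 8.52%. A mean difference below 0 was found for 13 of the 15, against 55.4% of all. The median difference of the 15 was -0.62, against -0.09 over all probe sets tested. Centring each array on its median put these at -0.40 and 0.13. The other 3 member probe sets, which were too dim for the test, are described with their genes.

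The titles number the replicates but state no pairing. Same-numbered arrays deviated together from their group means, with correlations across probe sets of 0.39, 0.27 and 0.25. The highest correlation between different numbers was 0.21. A block on this number was thus drawn from these same data. With the number as a block the fit over all probe sets still called 0%. With 1 probe set per gene, the brightest, and that block, a fit chosen after seeing the data, 3 of the 7 members fell, where 12% of all genes were called and 4.43% fell. These were Olah (limma adjusted p = 0.0176), Acly (0.0220) and Slc25a1 (0.0362). Fasn (0.0687), Thrsp (0.0938), Acaca (0.133) and Acss2 (0.962) did not pass. Without the block, limma with 1 probe set per gene called 0 of the 7 and 1.09% of all genes, 0.0733% lower and 1.02% higher. Array weights, which limma sets by how closely each array follows the fitted model and not by RNA quality, called 4 member probe sets lower and none higher. Of all probe sets, 9.95% were called, 4.73% lower and 5.22% higher.

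KO array 1 stood apart from the other KO arrays. RNA quality was read from the 3'/5' ratio of the Gapdh controls on each array, which stays low when RNA is intact. It was 0.802, 3.89 and 13.6 in KO arrays 1, 2 and 3, against 0.833 to 1.09 in wild type. The Actb ratio was 1.58, 1.87 and 21.0 in KO arrays 1, 2 and 3, against at most 2.04 in wild type, so KO array 3 alone stood out on both controls. KO array 1 read within the wild-type range for 12 of the 15 member probe sets. It was below it for 1, an Olah probe set, and above it for 2, both of Acss2. KO array 2 read below all wild-type arrays for 13 of 15 and KO array 3 for 10 of 15. Over all probe sets tested, 25.6%, 34% and 45.6% read below wild type in KO arrays 1, 2 and 3, and 24.7%, 34.3% and 31.6% above it. KO array 2 was above wild type for no member probe set, and KO array 3 for 1, of Acss2. KO array 1 against wild type alone gave a member median of 0.11, opposite in sign to the median over all arrays. That fit takes the spread of the lone KO array to equal that of wild type. The part of RNA quality in the member differences was not tested.

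The bright end of the arrays and some cell markers also differed in mean between the groups. The bacteriophage Cre control, spiked into each hybridisation, read 11820, 12012 and 9854 in KO arrays, against 27746, 19335 and 10208 in wild type. The groups overlapped, and the difference was -0.66 on the log2 scale (exact permutation p = 0.3, two-sided, n = 3 per group). The differences at the brightest Fasn, Thrsp and Acaca probe sets, -0.54, -0.55 and -0.53, were smaller in size than that, as was 0.02 at Acss2. Those at Slc25a1, Acly and Olah, -1.89, -0.94 and -1.11, were larger. The part of the bright end in the member differences was not tested. All 7 measured markers of secretory alveolar cells had lower means in the KO, and their summed signal was 49434 to 85590 in KO arrays, against 64719 to 190312 in wild type. Their median difference was -0.66, and -0.05 after quantile normalization. Adipocyte markers had a higher mean for 7 of 8, and summed to 28094 to 38310 in KO arrays and 19468 to 23575 in wild type. No adipocyte marker was at 0 in either group. All 7 fibroblast markers had higher means, with sums of 19374 to 28905 in KO arrays and 9178 to 15501 in wild type. All 5 lymphocyte markers had higher means, with sums of 545 to 979 in KO arrays and 303 to 467 in wild type. All 5 skeletal muscle markers did too, with overlapping sums. Luminal epithelium markers (4 of 8 lower, median 0.10) and endothelium markers (2 of 5 lower, median 0.06) were near 0 in the median, with overlapping sums. For macrophages 4 of 5 means were higher and for myoepithelium 3 of 7, again with overlapping sums. In whole-gland RNA, fewer cells of a type and less RNA per cell cannot be told apart, and the part of cell makeup was not tested.

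**Figure D1:**
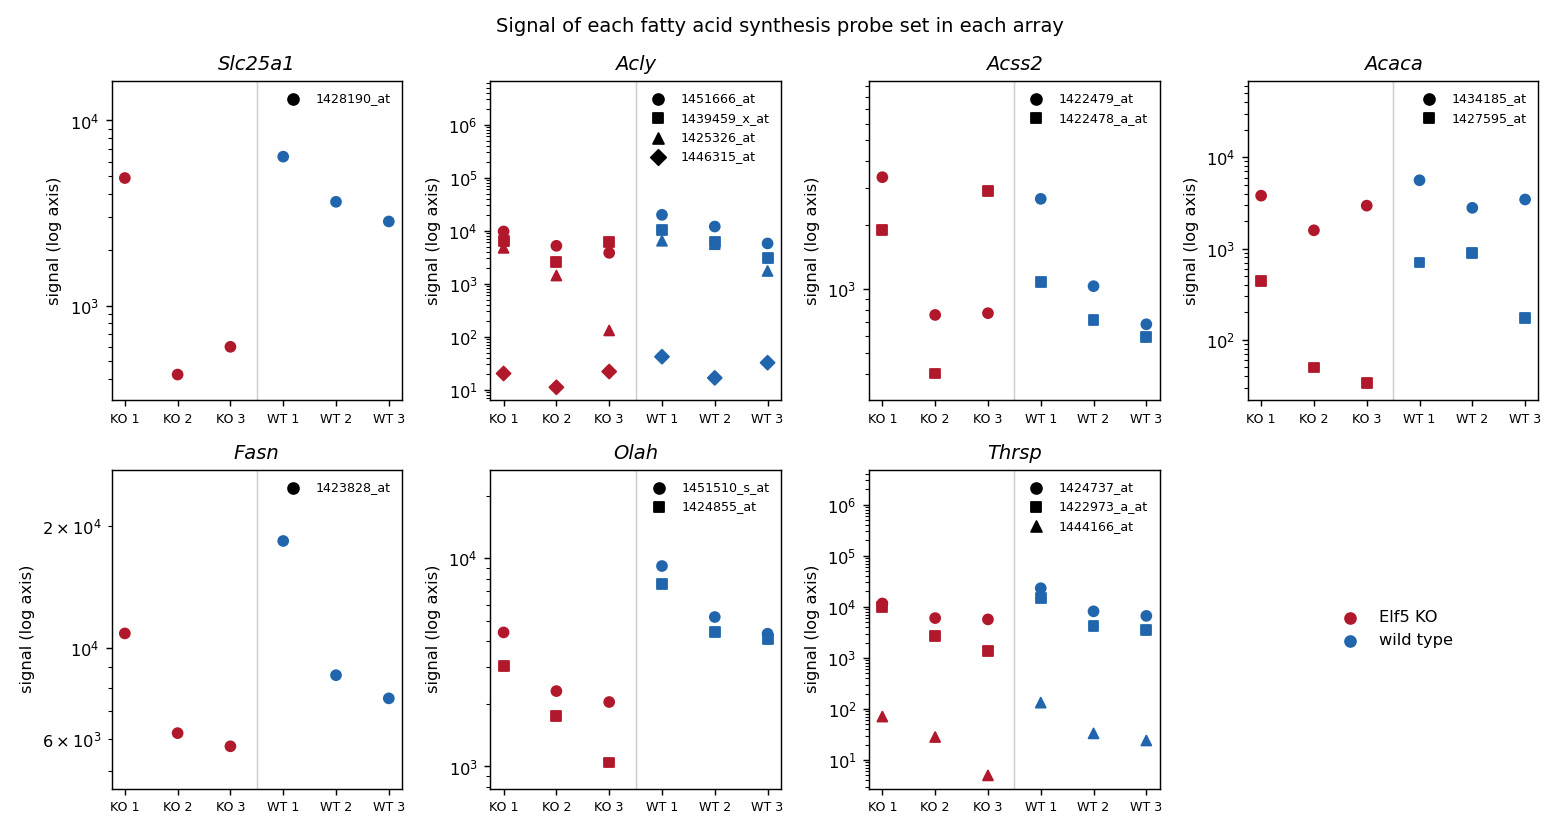
Signal of each tested member probe set (log axis) in the 3 Elf5 KO arrays (red) and the 3 wild-type arrays (blue), with a panel per gene and a symbol per probe set. Each point is 1 array. Olah 1424855_at is the only one of the 15 whose KO points, 1045 to 3032, all lie below the wild-type points, 4108 to 7531. Over all probe sets tested this held for 12.7%.

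The promoter windows of 4 members are shown: those of the 3 members that fell in the per-gene paired fit, and that of Acss2, whose mean was not lower over all 6 arrays. Each holds the 250 bases before the RefSeq transcription start of build GRCm38.p6, read 5′ to 3′ on the gene's strand. Capitals mark CCAAT on either strand, the box bound by the factor NF-Y, which often works beside sterol-regulated factors in lipogenic promoters.
Slc25a1, chr16:17928220-17928469, minus strand: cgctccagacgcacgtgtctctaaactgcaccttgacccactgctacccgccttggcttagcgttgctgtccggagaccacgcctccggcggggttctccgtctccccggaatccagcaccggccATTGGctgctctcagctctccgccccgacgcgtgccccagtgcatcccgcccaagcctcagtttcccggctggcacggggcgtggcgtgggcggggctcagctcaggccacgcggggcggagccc
Acly, chr11:100528001-100528250, minus strand: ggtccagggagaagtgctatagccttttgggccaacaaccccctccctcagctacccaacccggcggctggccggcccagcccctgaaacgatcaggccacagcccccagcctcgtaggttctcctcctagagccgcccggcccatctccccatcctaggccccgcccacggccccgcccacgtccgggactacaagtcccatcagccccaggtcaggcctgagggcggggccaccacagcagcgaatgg
Acss2, chr2:155517793-155518042, plus strand: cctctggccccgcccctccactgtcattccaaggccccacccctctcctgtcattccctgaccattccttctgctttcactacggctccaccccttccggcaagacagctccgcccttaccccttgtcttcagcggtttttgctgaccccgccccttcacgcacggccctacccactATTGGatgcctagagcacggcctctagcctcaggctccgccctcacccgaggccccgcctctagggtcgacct
Olah, chr2:3366570-3366819, minus strand: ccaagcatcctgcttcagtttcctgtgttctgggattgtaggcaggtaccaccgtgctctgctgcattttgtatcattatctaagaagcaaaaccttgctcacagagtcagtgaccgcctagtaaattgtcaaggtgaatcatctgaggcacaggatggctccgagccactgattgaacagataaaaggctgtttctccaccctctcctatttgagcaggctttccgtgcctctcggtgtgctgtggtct

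CCAAT stood in 1 place in the Slc25a1 window and 1 in the Acss2 window, and in none for Acly and Olah. Fasn, with 3 matches that overlap in part, and Thrsp, with 2, also held it. Over 32851 RefSeq windows of the same length, 33.8% held CCAAT, against 4 of 7 members. The GC box GGGCGG was found in Slc25a1, Acly and Acss2, against 32.7% of all windows. GGAAG, an ETS core with a flanking base, was found in Acss2 and Thrsp, against 64.1% of all windows, so 5 members lacked it in this window. The sterol element TCACNCCAC (1.1% of all windows) and the STAT motif TTCNNNGAA (7.0%) were in none of the 7. The E-box CACGTG (6.0%) was in Slc25a1 alone. Both strands were searched, and a match describes the letters only. The windows of Fasn and Acaca start inside the annotated gene span and were not printed, but both are in the counts over 7 members. The Acaca window held none of these motifs.

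Slc25a1 encodes the carrier that exports citrate from the mitochondrion. Its single probe set, 1428190_at, read 4886, 424 and 599 in KO arrays 1, 2 and 3, against 6376, 3635 and 2846 in wild type. KO arrays 2 and 3 lay far below every wild-type array, and KO array 1 lay among them. The log2 difference was -1.89 ± 0.80 (SE, limma adjusted p = 0.270, n = 3 per group). Within replicate numbers 1, 2 and 3 it was -0.38, -3.05 and -2.22, and with KO array 1 as the sole KO array it was 0.27. Without KO array 1 it was -2.96 and passed (limma adjusted p = 0.0374). That call rests on KO arrays 2 and 3, with Gapdh ratios of 3.89 and 13.6. Leaving KO array 1 out called 3 member probe sets, all lower, and 2.66% of all probe sets, 1.54% lower and 1.13% higher.

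Acly encodes ATP citrate lyase, which splits citrate to cytosolic acetyl-CoA and oxaloacetate. The brightest of its 6 probe sets, 1451666_at, read 9679, 5187 and 3819 in KO arrays, against 19918, 11993 and 5748 in wild type. Each KO array was lower than the wild-type array of its number, while KO array 1 exceeded wild-type array 3. The difference was -0.94 ± 0.48 on the log2 scale (SE, limma adjusted p = 0.326, n = 3 per group).

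The other Acly probe sets did not follow the brightest one array by array. 1425326_at read 4741, 1423 and 131 in KO arrays, against 6451, 5556 and 1738 in wild type, a difference of -1.99 ± 1.08. 1439459_x_at read 6369, 2574 and 6236 in KO arrays, against 10305, 6232 and 3109 in wild type, a difference of -0.32 ± 0.49. KO array 3 was thus the lowest of the 6 arrays on one Acly probe set and among the higher ones on the other. The suffix x marks a probe set that can bind other transcripts. A dim one, 1446315_at, read 11.1 to 22.0 in KO arrays and 16.7 to 41.9 in wild type. The 2 left untested, 1438389_x_at and 1439445_x_at, averaged 22.0 and 4.37 in KO arrays and 8.20 and 14.2 in wild type, so they pointed in opposite directions.

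Acss2 encodes the cytosolic acetyl-CoA synthetase, which supplies acetyl-CoA without citrate. 1422479_at read 3356, 755 and 769 in KO arrays, against 2654, 1031 and 682 in wild type. The groups overlapped throughout, with a difference of 0.02 ± 0.66 (SE, limma adjusted p = 0.988, n = 3 per group). 1422478_a_at read 1893, 400 and 2881 in KO arrays, against 1083, 715 and 597 in wild type. KO arrays 1 and 3 lay above wild type there and KO array 2 below it, with a difference of 0.74 ± 0.65 (limma adjusted p = 0.532). In KO array 1 against wild type alone the differences were 1.43 and 1.27 on these probe sets. Without KO array 1 the brightest one gave -0.68, against -0.83 for Fasn and -0.80 for the brighter Acaca probe set, and array weights gave -0.14 and -0.24 on the Acss2 probe sets. The dim 1446542_at, which was not tested, averaged 6.37 in KO arrays and 21.9 in wild type.

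Acaca encodes acetyl-CoA carboxylase, whose product malonyl-CoA commits carbon to chain building. Its brighter probe set, 1434185_at, read 3795, 1585 and 2952 in KO arrays, against 5598, 2795 and 3447 in wild type, with KO arrays 1 and 3 inside the wild-type range. The difference was -0.53 ± 0.39 (SE, limma adjusted p = 0.469, n = 3 per group), and -0.25 without wild-type array 1. The dimmer 1427595_at read 443, 49.8 and 33.9 in KO arrays, against 704, 892 and 173 in wild type. Its difference was -2.12 ± 0.86 (limma adjusted p = 0.258), and -0.12 with KO array 1 as the sole KO array. Without KO array 1 it was -3.12 (limma adjusted p = 0.0472). The probe sets of Acaca thus differed by unequal amounts, and the larger difference was at the dimmer one.

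Fasn encodes fatty acid synthase, which builds the chain. Its probe set read 10878, 6190.2 and 5747 in KO arrays, against 18343, 8589 and 7535 in wild type. KO arrays 2 and 3 were below every wild-type array and KO array 1 was second only to wild-type array 1. The difference was -0.54 ± 0.39 (SE, limma adjusted p = 0.455, n = 3 per group), and -0.75, -0.47 and -0.39 within replicate numbers 1, 2 and 3. Quantile normalization, which gives all arrays the same distribution, moved it to -0.14, and leaving out wild-type array 1, the brightest for Fasn, also gave -0.14.

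Olah encodes the thioesterase that releases medium-chain acids from Fasn. 1424855_at read 3032, 1750 and 1045 in KO arrays, against 7531, 4409 and 4108 in wild type. Every KO array lay below every wild-type array, which held for 1 of 15 member probe sets and for 12.7% of all probe sets tested. Groups without overlap in either direction made up 24.6%, 11.9% being higher. The difference was -1.53 ± 0.42 (SE, limma adjusted p = 0.166; exact permutation p = 0.1, two-sided, the smallest that 3 against 3 arrays can give). 1451510_s_at read 4410, 2304 and 2041 in KO arrays, against 9195, 5229 and 4347 in wild type. There only KO array 1 and wild-type array 3 crossed, and the difference was -1.11 ± 0.39 (limma adjusted p = 0.217).

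The Olah difference was negative in each replicate number. On 1451510_s_at it was -1.06, -1.18 and -1.09 for numbers 1, 2 and 3. On 1424855_at it was -1.31, -1.33 and -1.96, larger in size for number 3. Since the groups do not overlap there, any matching of the arrays would give negative values. On 1451510_s_at so would any matching that does not join KO array 1 to wild-type array 3. After quantile normalization the group differences on 1451510_s_at and 1424855_at were -0.98 and -1.41. With KO array 1 as the sole KO array they were -0.43 and -0.76, still negative, unlike 10 of the other 13 tested member probe sets. The sign was also negative at Acly 1451666_at (-0.20), Acly 1446315_at (-0.32) and Acaca 1427595_at (-0.12). Secretory alveolar markers had a median of -0.35 in that fit, so the sign is not particular to Olah. Leaving out KO array 1 brought 1424855_at past the threshold (-1.92, limma adjusted p = 0.0474).

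Thrsp encodes the thyroid hormone responsive protein, needed in mice for full fatty acid synthesis in the lactating gland. 1424737_at read 11634, 6021 and 5677 in KO arrays, against 23144, 8162 and 6650 in wild type, and 1422973_a_at read 10018, 2723 and 1350 in KO arrays, against 15172, 4241 and 3466 in wild type. On both, KO arrays 2 and 3 were below every wild-type array and KO array 1 was below wild-type array 1 alone. The differences were -0.55 ± 0.48 and -0.86 ± 0.75 (SE, limma adjusted p = 0.527 and 0.531, n = 3 per group). Without wild-type array 1, the brightest on both, they were -0.0025 and -0.20. The dim 1444166_at averaged 34.7 ± 33.4 in KO arrays and 63.4 ± 60.3 in wild type (SD, n = 3 each).

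**Figure D2:**
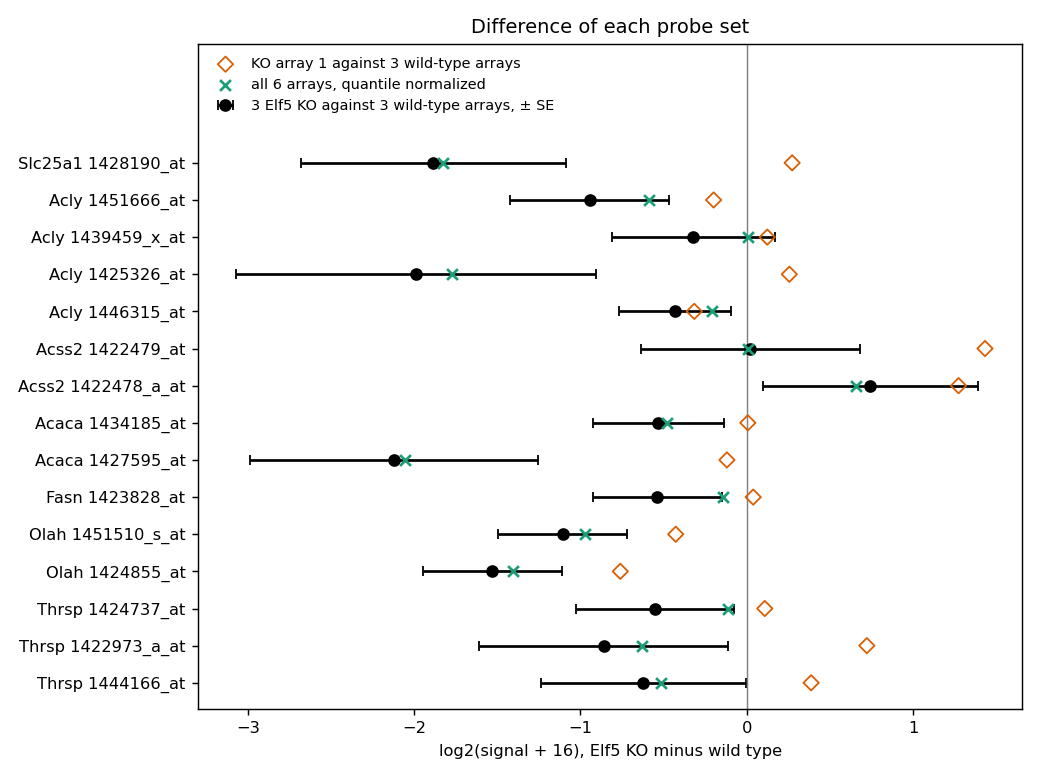
Difference of each tested member probe set on the log2(signal + 16) scale, Elf5 KO minus wild type. Black points are all 6 arrays with limma's SE as bars, crosses are the same after quantile normalization, and diamonds are KO array 1 against the wild-type arrays. The Olah diamonds lie at -0.43 and -0.76 and that of Acly 1451666_at at -0.20, while those of Slc25a1, Fasn and Acss2 lie above 0.

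Members were then set against each other within an array, where the scaling of the array cancels. The log2 ratio of Olah to Fasn, relative to its wild-type mean, was -0.47, -0.59 and -0.65 in KO arrays 1, 2 and 3, against -0.16, 0.12 and 0.04 in wild type. All KO arrays, KO array 1 included, were below all wild-type arrays, by 0.57 on average (exact permutation p = 0.1, two-sided; 0.35 adjusted over 7 ratios). At the dimmer Olah probe set the ratio differed by -0.99. The ratio of Thrsp to Fasn was 0.07, -0.07 and -0.04 in KO arrays, inside the wild-type range of -0.21 to 0.31 (difference -0.01, exact permutation p = 1). The ratio of Acaca to Fasn was -0.03, -0.47 and 0.53 in KO arrays, against -0.23, -0.13 and 0.36 in wild type. Its mean difference of 0.0071 (exact permutation p = 1) thus came from KO arrays on both sides of 0, and the dimmer Acaca probe set gave -1.58.

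Relative to Acly, Acss2 was higher in all 3 KO arrays, at 1.63, 0.40 and 0.87, against 0.26, -0.36 and 0.11 in wild type. The ratio differed by 0.97 (exact permutation p = 0.1, two-sided; 0.35 adjusted over 7 ratios). At the second brightest probe sets it differed by 1.06 with overlapping groups (exact permutation p = 0.2). The ratio of Slc25a1 to Fasn was 0.23, -2.43 and -1.84 in KO arrays, against -0.14, 0.15 and -0.01 in wild type, so it was low in KO arrays 2 and 3 alone (exact permutation p = 0.4). The ratios of Acly to Fasn and of Acss2 to Fasn differed by -0.41 and 0.56, with overlapping groups (exact permutation p = 0.3 and 0.4). With 3 against 3 arrays no p under 0.1 was possible for any of these.

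**Figure D3:**
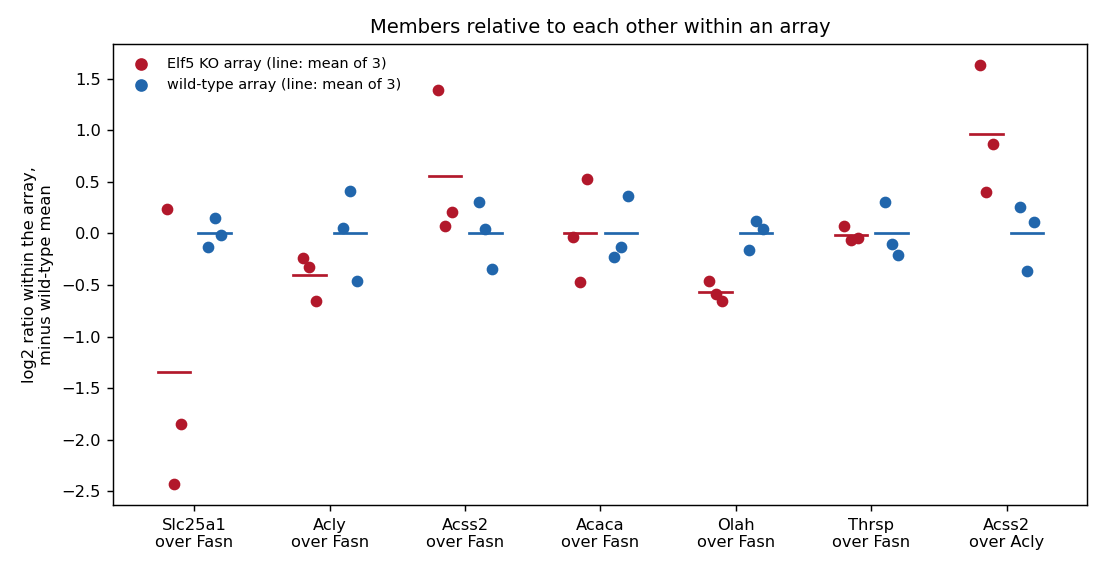
Log2 ratio of member pairs within each array at their brightest probe sets, with the wild-type mean of each pair set to 0. Points are arrays, Elf5 KO (red) left of wild type (blue), and lines are means of 3. The KO points of Olah over Fasn lie between -0.65 and -0.47, below the wild-type points, while Slc25a1 over Fasn splits the KO arrays.

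Probe sets of the same gene parted in KO array 3. Each gap is the log2 ratio of a dimmer to the brightest probe set of a gene, minus its wild-type mean. In KO array 3, with a Gapdh ratio of 13.6, the gap was -3.22 for Acly 1425326_at, 1.63 for Acly 1439459_x_at and 2.55 for Acss2 1422478_a_at. It was -2.97 for Acaca 1427595_at, -1.23 for Thrsp 1422973_a_at and -0.75 for Olah 1424855_at. In KO array 1, with a Gapdh ratio of 0.802, these 6 gaps ran from -0.33 to 0.61. A transcript level cannot be read from these KO array 3 values alone, since probe sets of the same gene gave opposite directions for Acly. The sources used here do not place the probe sets along their transcripts.

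**Figure D4:**
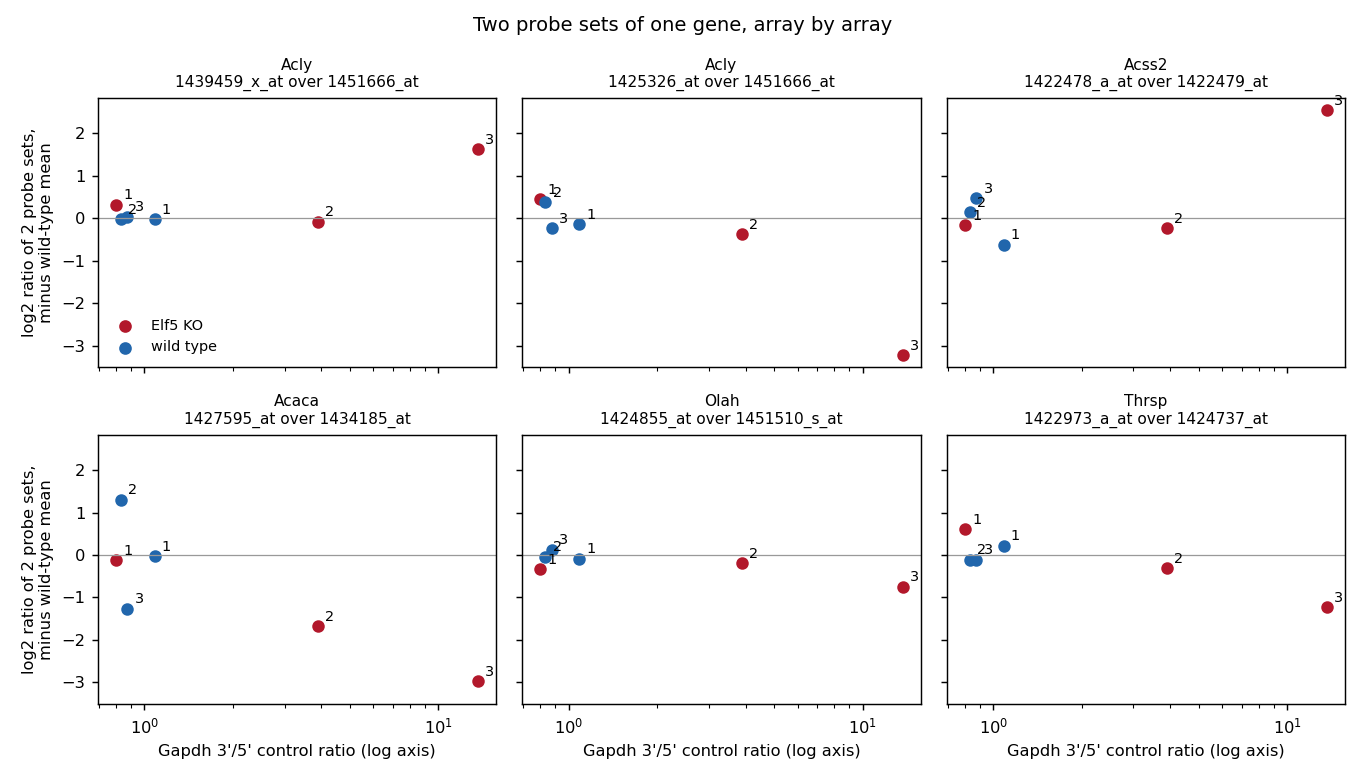
Log2 ratio of 2 probe sets of the same gene in each array, minus the wild-type mean, against the Gapdh 3'/5' control ratio (log axis). Red points are Elf5 KO and blue points wild type, with the replicate number beside each. KO array 3, at a Gapdh ratio of 13.6, lies farthest from 0 in all 6 panels, down to -3.22 for Acly and up to 2.55 for Acss2.

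The other genes of the pathway were taken at their brightest probe set, 52 of 57 listed being measured. None passed in the fit over all probe sets, where 0% of all passed. In the paired fit with 1 probe set per gene 3 of the 52 fell and 2 rose, against 4.43% and 7.57% of all genes. Their median difference was -0.21, against 0.07 over all genes at 1 probe set each. Of the 52, 7 were lower and 7 higher without overlap of the groups. This is near the share of all probe sets tested, 12.7% lower and 11.9% higher.

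Among transcription factors of lipogenesis, 8 of 12 had a lower mean. Mlxipl, which encodes the glucose-responsive factor ChREBP, read 312, 283 and 255 in KO arrays, against 134, 123 and 96.9 in wild type. All KO arrays were above all wild-type arrays, KO array 1 being the highest, with a difference of 1.17 ± 0.30 (SE, limma adjusted p = 0.153, n = 3 per group). It rose in the per-gene paired fit (limma adjusted p = 0.0279). Its partner Mlx differed by -1.13 ± 0.50 and the E-box factor Usf2 by -1.21 ± 0.45, with no overlap of the groups. With KO array 1 as the sole KO array these were -0.27 and -0.22, so the size came from KO arrays 2 and 3. Srebf1, whose product drives lipogenic genes including Fasn, read 2289, 1741 and 1167 in KO arrays, against 5484, 1918 and 1384 in wild type, a difference of -0.55 ± 0.50 (limma adjusted p = 0.554).

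Genes that set malonyl-CoA pointed both ways, 6 of 10 having a lower mean. Prkaa2, a catalytic subunit of the kinase AMPK that inhibits Acaca, read 562, 374 and 84.3 in KO arrays, against 1359, 1176 and 1139 in wild type. The groups lay far apart, with a difference of -2.13 ± 0.58 (SE, limma adjusted p = 0.166, n = 3 per group), and Prkaa2 fell in the per-gene paired fit (limma adjusted p = 0.0243). Within replicate numbers 1, 2 and 3 its difference was -1.25, -1.61 and -3.53, and with KO array 1 as the sole KO array -1.10. The other catalytic subunit, Prkaa1, differed by 0.94 ± 0.36 and the regulatory subunit Prkab2 by 1.05 ± 0.40, both dim in wild type and above it in every KO array. Acacb, the carboxylase at the mitochondrial membrane, differed by -0.44 ± 0.59.

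In acetyl-CoA supply 9 of 11 means were lower, and the median difference was -0.58. Acss1, the mitochondrial acetyl-CoA synthetase, differed by -0.58 ± 0.32, the pyruvate dehydrogenase subunit Dlat by -0.55 ± 0.31 and the pyruvate carrier Mpc1 by -0.58 ± 0.34. In mitochondrial fatty acid synthesis, a separate pathway, 2 of 7 means were lower, and the median difference was 0.15. Its ketoacyl synthase Oxsm differed by 0.65 ± 0.33, the reductase subunit Cbr4 by 0.39 ± 0.31 and the malonyl-CoA synthetase Acsf3 by -0.61 ± 0.36.

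Among genes that take up the new fatty acids, 6 of 12 had a lower mean. Fabp3, a fatty acid binding protein of the lactating gland, read 13093, 5490.1 and 6066 in KO arrays, against 26806, 13838 and 12921 in wild type. The difference was -1.15 ± 0.40 (SE, limma adjusted p = 0.215, n = 3 per group), and Fabp3 fell in the per-gene paired fit (limma adjusted p = 0.0145), as did the desaturase Scd2 (0.0378). With KO array 1 as the sole KO array Fabp3 differed by -0.36, while Scd2 turned to 0.19, and to 0.03 with the Gapdh ratio as a covariate. The thioesterase Acot7 read 214, 218 and 276 in KO arrays, against 114, 86.3 and 111 in wild type. Its difference was 1.07 ± 0.30, and it rose in the per-gene paired fit (0.0362). Elovl6, which lengthens the main product of Fasn, differed by 0.93 ± 0.38.

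**Figure D5:**
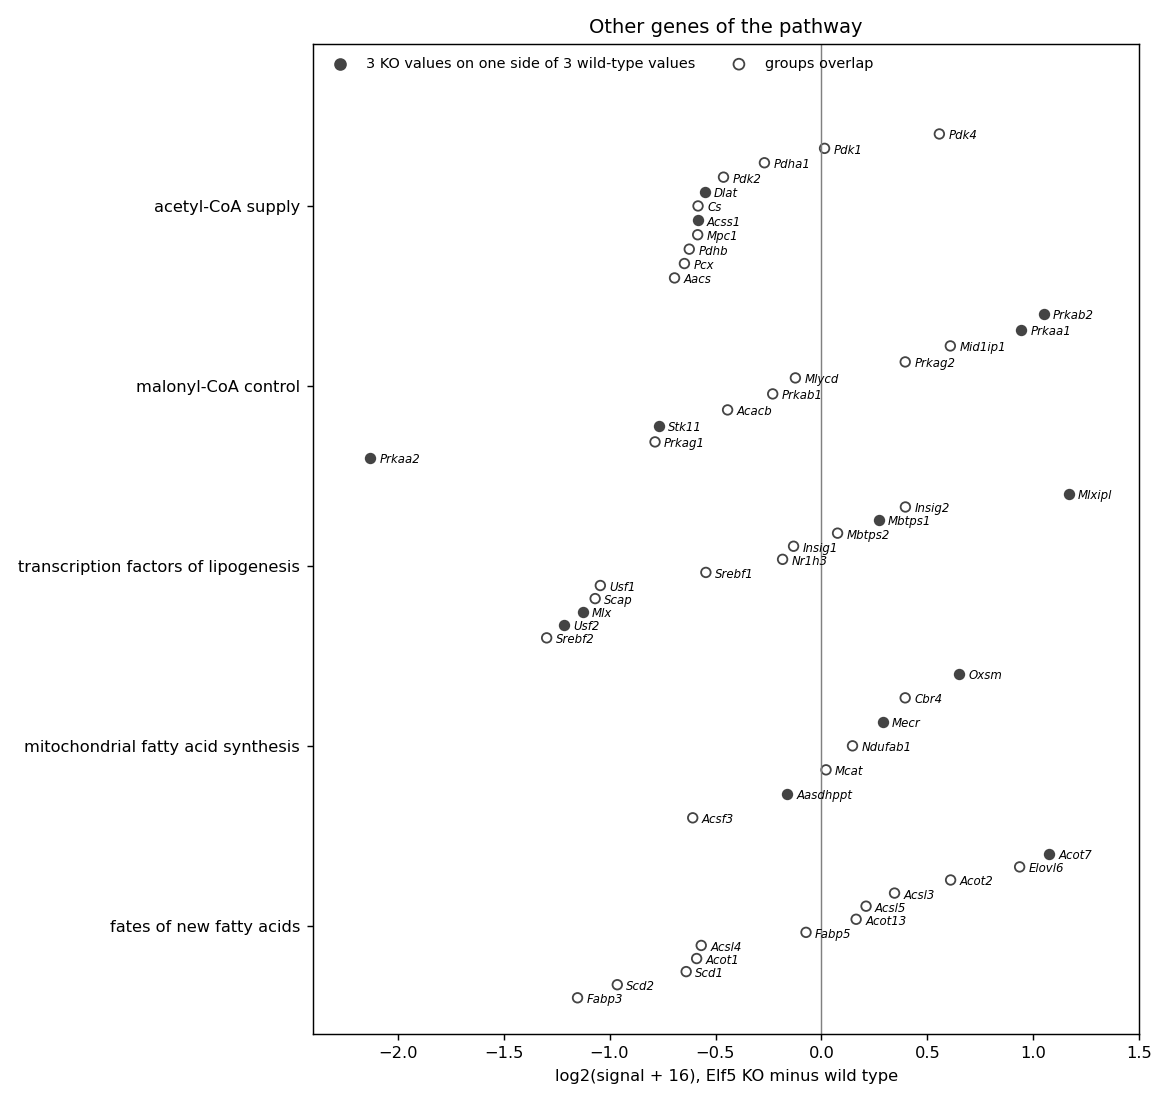
Difference of each other pathway gene at its brightest probe set, on the log2(signal + 16) scale, Elf5 KO minus wild type, by role. Filled points are genes whose KO and wild-type values do not overlap, 7 lower and 7 higher of 52, against 12.7% and 11.9% of all probe sets tested. Prkaa2 lies lowest at -2.13 and Mlxipl highest at 1.17.

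The genes closest in pattern to the mean of the 7 members were Tpd52l1, Vgll4, Susd3, Rbfox3 and H2-T24. Likeness was the root mean square distance between log2 profiles over the 6 arrays, each centred on its own mean. The distances were 0.11 for Tpd52l1, 0.11 for Vgll4, 0.11 for Susd3, 0.12 for Rbfox3 and 0.13 for H2-T24, against a median of 0.845 over 13190 genes. Fasn, Olah, Thrsp and Acly lay at 0.24 to 0.29 from that mean, Acaca at 0.41, Acss2 at 0.49 and Slc25a1 at 0.82. The closest genes were far dimmer than the members. Mean signals in KO and wild type were 27.6 and 46.3 for H2-T24, 45.4 and 78 for Rbfox3, and 59.7 and 102 for Vgll4. They were 61 and 117 for Susd3, and 212 and 404 for Tpd52l1. The dimmest member at its brightest probe set, Acss2, averaged 1627 and 1456. Centring set these levels aside, and the pseudocount understates changes of dim probe sets. The arrays share their scaling and group structure, so the likeness describes the profiles only.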

How the data were processed

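The deposited values are linear signal intensities per probe set, which the authors made with tools listed as MAS5 and affy, per the submitters' processing notes. In each array the mean, trimmed by 2% at each end, was 150, and this scaling was kept. GEO's platform annotation gave 1 gene to 34958 probe sets, several to 932 and none to 9211. All 7 members matched RefSeq through their Entrez numbers and had a promoter window.

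A pseudocount of 16 was added before the log2, which understates changes of dim probe sets. Controls (64) and probe sets with a mean signal under 23.4, the 40th percentile (18013), were left out, and 15 of the 18 member probe sets stayed. The test was limma 3.58.1 (R 4.3.3) with an intensity trend and Benjamini-Hochberg adjustment over all 27024, without a block, and the small number of arrays limits its precision. Tested on simulated data of 3 against 3 arrays (27022 probe sets, 200 of them changed), it found 20% of changes of log2 size 2 and 0% of size 1, with 0 false calls. The simulated noise was independent between probe sets, so it cannot show false calls from effects shared across an array. The share found also depends on the number changed, which was set at 200. Single values had two-sided exact permutation tests. Same-numbered arrays were paired because each pair's correlation was over 0.1, though the titles state no pairing. KO array 2 with wild-type array 3, of different numbers, was over it too, at 0.21.

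Of each list of other pathway genes, those called or else the 3 with the smallest p were named, with Srebf1, Mlxipl and Acacb always; Scd2 was added after its value was seen. The members and lists were chosen with earlier results of these data known.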

Additional observations from a re-analysis of the deposited data

How the results depend on the processing

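No member probe set was called by limma under other pseudocounts (1 or 64), filters, scalings, no trend, the replicate block (0 lower), 1 probe set per gene, the Gapdh ratio as a covariate or KO array 1 as the sole KO array. Array weights called 4 member probe sets lower (both of Olah, Slc25a1 and Acaca 1427595_at), 4 other pathway genes lower and 4 higher, and Elf5 (-0.91). Array weights called 2689 probe sets in all, and the cause was not tested. The replicate block with 1 probe set per gene, chosen after seeing the data, called 3 members lower, 3 other pathway genes lower and 2 higher, and Elf5 (-1.06). There 1310 genes were called, against 119 without the block. Leaving out single arrays gave 0 to 3 member calls and 0 to 3 other pathway calls, and the calls came when KO array 1 was left out, with 720 probe sets called. Over these the member median ran from -1.13 to -0.25.

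Signs turned with KO array 1 as the sole KO array, at Slc25a1 (0.27), Acly 1439459_x_at (0.12), Acly 1425326_at (0.26), Acaca 1434185_at (0.0064), Fasn (0.039) and Thrsp (0.11, 0.72 and 0.39). With the Gapdh covariate they turned at Acly 1425326_at (0.26) and the dimmer Thrsp probe sets (0.38 and 0.24), with quantile normalization at Acly 1439459_x_at (0.0067), and with array weights at Acss2 (-0.14 and -0.24). Without single arrays, Acss2 1422479_at ran from -0.68 to 0.57 and Acly 1439459_x_at from -0.77 to 0.11. At the second brightest probe sets the ratio difference of Acly to Fasn was 0.22 and of Acaca to Fasn -1.58. The cause was not tested. Olah, Acly 1451666_at, Acly 1446315_at and Acaca 1427595_at stayed negative under every alternative that tested them.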
